A study of Mus musculus with 12 samples.

Results

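The genes described here are 48 chromatin modifiers and remodellers, the enzymes and complex subunits that write, erase or read histone and DNA marks or move nucleosomes. They were chosen by name, with earlier results of these data known. By the array's annotation 46 of the 48 had a probe set that carries their symbol alone, out of 18193 genes measured, and each gene was represented by its brightest such probe set. Ncor1 and Suv39h1 were not analysed here. By role the 46 comprise 9 genes of DNA methylation, 12 of Polycomb and of H3K27 demethylation, 7 SWI/SNF subunits, 5 NuRD subunits, 5 deacetylases, 3 acetyltransferases and 5 other enzymes of histone methylation.

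Expression was measured in pre-pro-B progenitors of C57BL/6 mice, all of which lacked the gene Ebf1 (genotype Ebf1-/-). The cells grew on OP9, a mouse bone marrow stromal line, in 4% serum, and the medium held the cytokines SCF and Flt3L (10 ng/ml each) and IL-7 (5 ng/ml). They were infected with MigR1, a retrovirus that carries GFP alone (control), with Mig-EBF1, which adds EBF1, or with Mig-PAX5, which adds PAX5, and after 2 days the cells that expressed GFP were sorted. The 12 one-colour Affymetrix arrays form 2 sets: 3 control and 3 EBF1 arrays in the first, and 3 control and 3 PAX5 arrays in the second. The series as a whole concerns how chromatin folds as cells pass from the pre-pro-B stage to that of pro-B cells. The comparison reported here asks whether either factor changed the expression of the chromatin machinery itself. Both factors came from a viral vector in cells without their own Ebf1, and the labels do not say how many animals or cultures the arrays stand for, so the p-values measure the spread between arrays, part of which may be technical.

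EBF1 and PAX5 are the transcription factors that specify the B lineage and commit cells to it. They act through chromatin: EBF1 can open closed sites at B-cell genes, and PAX5 recruits activating and repressing complexes. Polycomb complexes keep genes silent by methylating and ubiquitinating histones, SWI/SNF slides and evicts nucleosomes, and NuRD joins a nucleosome-moving helicase to histone deacetylases. DNA methyltransferases deposit and copy methyl groups on cytosine, and TET enzymes oxidise them for removal.

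The values are intensities on a linear scale, and the median of an array was 55.1 to 60.6 in the first set, against 65.3 to 68.9 in the second. Control arrays of equal number differed between the sets by a robust SD of 0.0392 to 0.0942 on the log2 scale over the bright probe sets, against 0.287 to 0.374 for control arrays of unequal number, and PAX5 arrays 2 and 3 differed by 0.0774. Each such pair lay closer than replicates of a group and was counted once, which left 3 control, 3 EBF1 and 2 PAX5 samples. Pax5 rose in the PAX5 group, from 12.8, 8.97 and 7.98 on the set 2 controls to 1849, 891 and 932. The Ebf1 probe set read 2027 to 2173 on the set 1 controls and 1886 to 2477 on the EBF1 arrays, so it was bright in cells that lack the gene and does not check the labels. Among 10 B-lineage markers measured, Cd79a, Cd79b, Vpreb1 and Igll1 rose with EBF1. Markers of the OP9 stroma stood apart on 1 library: the summed intensity of 15 genes was 12362 on EBF1 array 3, 2906 and 931 on the other EBF1 arrays, and 670 to 2335 on the set 1 controls. Its part in the results was not tested, and counts without that array are given with the main counts. In sorted bulk RNA, fewer cells of a type and less RNA per cell cannot be told apart.

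None of the 46 genes passed the test with either factor. The test was limma on log2(intensity + 16), with p-values adjusted over all 18193 genes by the Benjamini-Hochberg method and a threshold of 0.05. With EBF1, 0 of 46 passed, where 0.220% of all genes did (40 genes). With PAX5, 0 of 46 passed, where 0.874% of all genes did (159 genes), and 0 of 46 differed between the EBF1 and PAX5 changes, where 1.94% of all genes did (353 genes). A count of 0 among 46 genes is near those backgrounds. The smallest adjusted p of a member was 0.333 with EBF1, 0.465 with PAX5 and 0.191 for the difference. At an unadjusted p under 0.05 there were 3 members with EBF1, 1 higher (Uhrf1) and 2 lower (Arid1a and Hdac9), a share of 6.52% against 11.6% of all genes. With PAX5 there were 2, Mbd2 higher and Dnmt3b lower, a share of 4.35% against 9.45%. For the difference there were 3, Uhrf1 and Kat2a higher and Rnf2 lower, or 6.52% against 17.0%. Without EBF1 array 3, whose stroma sum stood apart, 406 genes passed with EBF1 but still 0 of 46 members. There 8 of the 46 had an unadjusted p under 0.05, a larger share than the 13.3% of all genes. Of these 8 members 1 was higher and the rest were lower. The counts above come from fits that did not pair arrays by replicate number. With that number as a block among control and EBF1 samples, 69 genes passed with EBF1 and 608 for the difference. Again 0 of 46 members passed in each. The EBF1 and PAX5 changes are measured against the same control samples, so they are not independent of each other.

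**Figure D1:**
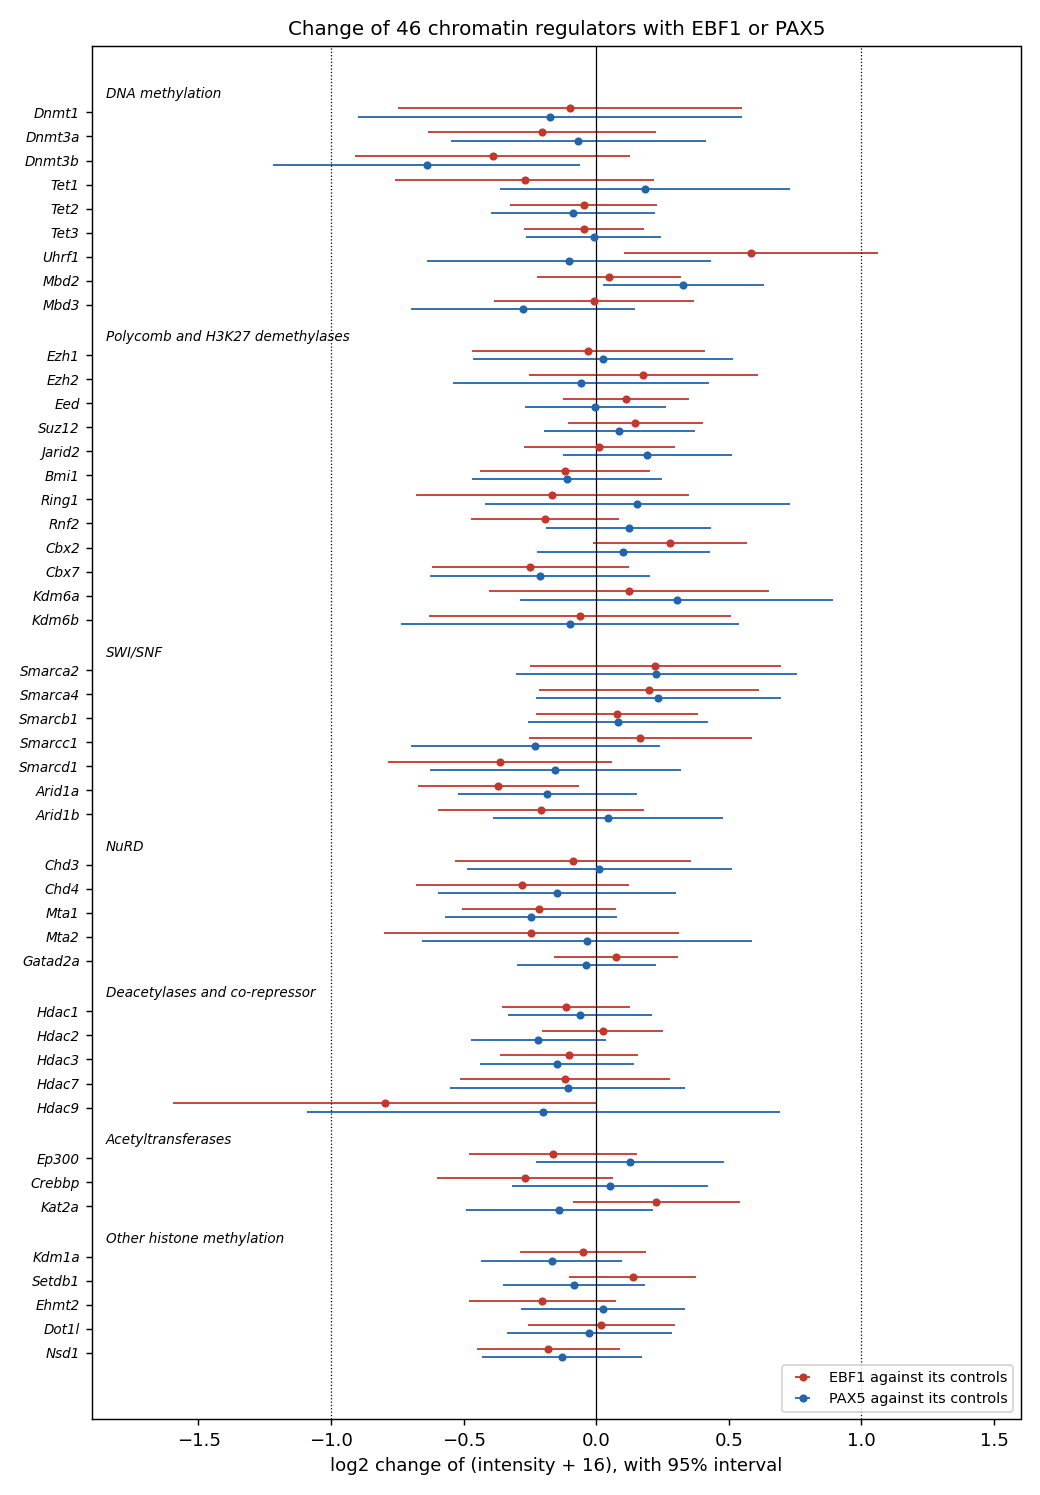
Log2 difference from control of the members with EBF1 and with PAX5 (x axis), by role, with points for the fitted difference and bars for its 95% interval; dotted lines mark -1 and 1. All 46 members miss the adjusted threshold in both comparisons, and the widest intervals belong to Hdac9.

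How much change the arrays could have missed is given by the intervals. With EBF1 the 95% interval of 44 of 46 members lay within 1 unit of 0 on the log2 scale, that is, within 2-fold, against 92.1% of all genes. Uhrf1 and Hdac9 were the exceptions. With PAX5 it was again 44 of 46, against 90.2% of all genes, with Dnmt3b and Hdac9 outside. For the difference between the factors it was 43 of 46, against 86.1%, with Tet1, Uhrf1 and Hdac9 outside. Tet3 had no usable EBF1 reading, as described with the control sets, and without it the counts were 43, 43 and 42 of 45. Smaller changes could not be told from 0 with these arrays: the median standard error of a member was 0.14 with EBF1 and 0.16 with PAX5.

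The members lay slightly more often below than above 0. With EBF1 29 of 46 (63.0%) had a log2 difference below 0, against 46.8% of all genes, and their median was -0.07 against 0.01 for all genes. With PAX5 29 of 46 were again below 0, against 51.8% of all genes, and their median was -0.06 against -0.01. Of the members 44 had a mean log2 above 7, and 27 of these 44 lay below 0 with each factor. Among all 8991 genes above that level, 4560 lay below 0 with EBF1 and 4973 with PAX5. The medians of those 8991 genes were -0.0029 and -0.026. The median size of a difference, sign aside, was 0.17 with EBF1 and 0.12 with PAX5, and 0.14 for all genes in both. Whether the members as a list lay below 0 was not tested.

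**Figure D2:**
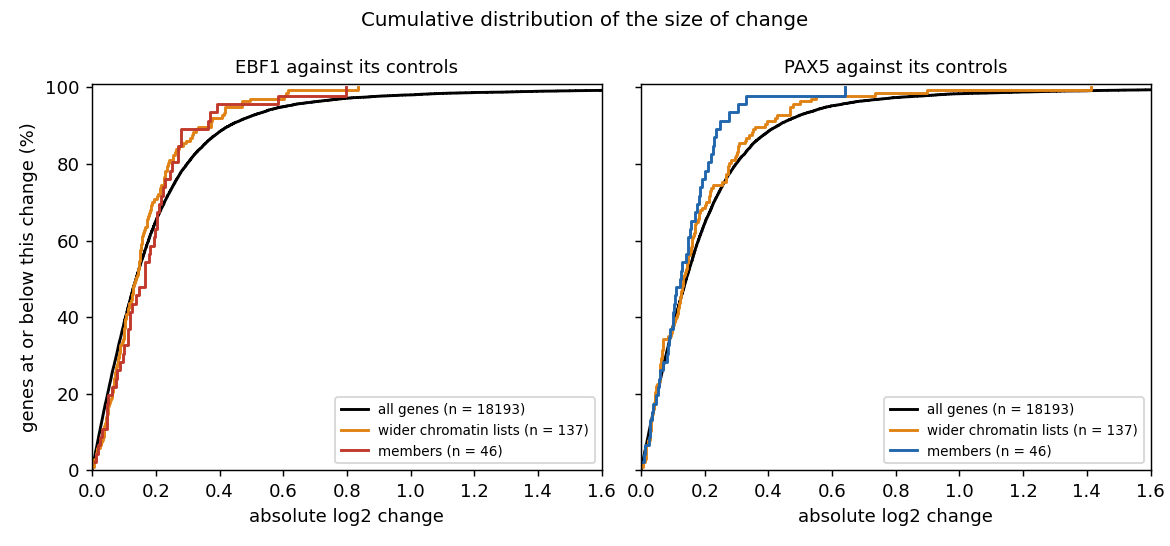
Cumulative share of genes (y axis, percent) at or below each absolute log2 difference from control (x axis) with EBF1 and with PAX5, for the 46 members, the 137 genes of the wider lists and all 18193 genes. The curve of the members ends at 0.80 with EBF1 and at 0.64 with PAX5, while that of all genes runs on.

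Among the DNA methylation genes, Uhrf1 and Dnmt3b lay furthest from control. Uhrf1 guides the maintenance methyltransferase to newly copied DNA. Its intensity was 2107, 1819 and 3064 on control arrays 1, 2 and 3 of set 1, and 3912, 3042 and 3352 on the EBF1 arrays. EBF1 array 2 lay below control array 3, so the groups overlapped. The log2 difference was 0.58 (SE 0.21, interval 0.10 to 1.06, adjusted p 0.335 by limma). The second Uhrf1 probe set read 1.02 in the same direction. On the PAX5 arrays Uhrf1 read 1848, 2469 and 2466, within the range of the set 2 controls, 1829 to 3099, and its EBF1 change exceeded its PAX5 change by 0.69 (SE 0.24, adjusted p 0.191). Genes of cell division, a list of which 19 of 20 were measured, had summed intensities of 58900 to 74929 in the set 1 controls and 60038 to 73474 with EBF1, highest on control array 3, the array on which Uhrf1 was highest among controls; 0 of the 19 passed the test with either factor. Their part in the Uhrf1 values was not tested.

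Dnmt3b, one of the enzymes that place new methyl marks, read 2028, 2749 and 2512 on the set 2 controls and 1326, 1787 and 1797 on the PAX5 arrays. All 3 PAX5 arrays, which were counted as 2 samples, lay below all 3 controls. The log2 difference was -0.64 (SE 0.25, interval -1.22 to -0.06), with an adjusted p of 0.465, and its second probe set read -0.63. Without PAX5 array 1 it was -0.42. With EBF1 the values were 1336, 1859 and 2394 against 2004, 2756 and 2444, and the groups overlapped, with a difference of -0.39 (adjusted p 0.562). That was -0.17 without EBF1 array 1 (adjusted p 0.867) and -0.59 without EBF1 array 3 (adjusted p 0.27). The maintenance enzyme Dnmt1 and the second enzyme of new methylation, Dnmt3a, lay between -0.75 and 0.55 and between -0.63 and 0.23 with EBF1, by their 95% intervals.

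Mbd2, which binds methylated DNA and can bring in NuRD, read 2163, 1910 and 1826 on the set 2 controls and 2648, 2351 and 2246 on the PAX5 arrays, with no overlap. The difference was 0.33 (SE 0.13, interval 0.02 to 0.63, adjusted p 0.483 by limma), and its second probe set read 0.43. With EBF1 it was 0.05. Mbd3, the related protein found in NuRD, read 575, 618 and 730 on the set 2 controls and 441, 636 and 607 on the PAX5 arrays, which overlapped, a difference of -0.28 (adjusted p 0.747).

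The probe sets of Tet1 disagreed. Tet1 begins the oxidation of methyl cytosine, and its brightest probe set differed by -0.27 with EBF1 and 0.18 with PAX5. The next probe set, singled out after its values were seen, read 442, 414 and 310 on the set 1 controls and 257, 232 and 244 on the EBF1 arrays, a difference of -0.62 that missed the test over all probe sets (adjusted p 0.159). It read 485, 435 and 357 on the set 2 controls and 291, 295 and 269 on the PAX5 arrays, a difference of -0.54 (adjusted p 0.282). In both, the transduced arrays lay below all the controls. The other probe sets read -0.40 and 0.06 with EBF1 and -0.63 and 0.07 with PAX5.

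**Figure D3:**
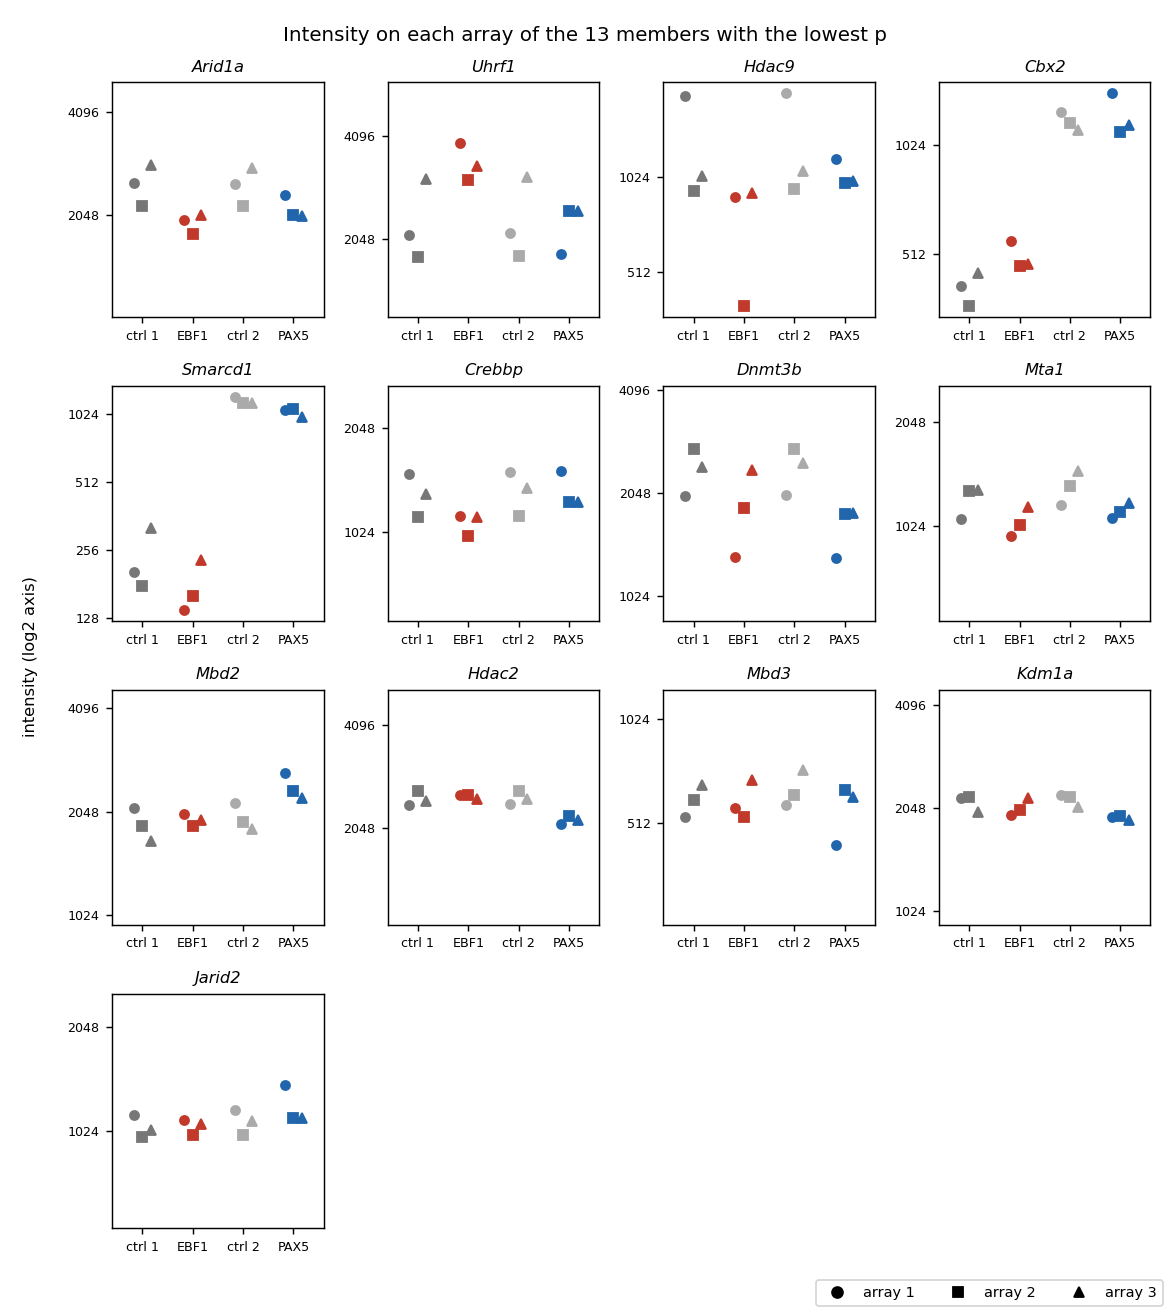
Intensity of 13 members, those with the lowest p with either factor, on each array (y axis, log2 scale) by group, with 1 symbol for each array number. Dnmt3b and Mbd2 separate from the controls of set 2 on the PAX5 arrays, whereas Uhrf1 and Mbd3 overlap theirs.

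The Polycomb list held 12 genes, and the 95% interval of each lay within 1 unit of 0 in all 3 comparisons. Ezh2, the methyltransferase of the repressive complex, lay between -0.25 and 0.61 with EBF1 and between -0.54 and 0.43 with PAX5. Its core partners Eed and Suz12 had intervals of -0.12 to 0.35 and -0.11 to 0.40 with EBF1. The lowest p of the list with EBF1 was that of Cbx2, which reads the methyl mark: 418, 365 and 453 on the set 1 controls and 555, 474 and 479 on the EBF1 arrays. The groups did not overlap, and the difference was 0.28 (SE 0.13, interval -0.01 to 0.57, adjusted p 0.451 by limma). Jarid2, an accessory subunit, had the lowest p of the list with PAX5, at 1175, 996 and 1095 on the controls and 1386, 1114 and 1115 on the PAX5 arrays, an overlapping difference of 0.19 (adjusted p 0.77). The lysine demethylases Kdm6a and Kdm6b, which remove the Polycomb mark, varied widely between the PAX5 arrays. Kdm6a read 1413, 753 and 962 there, against 868, 770 and 1040 on the controls, and Kdm6b read 687, 346 and 338 against 501, 559 and 506. For both, PAX5 array 1 stood above the controls and PAX5 array 2 below them, and their intervals were -0.29 to 0.89 and -0.74 to 0.54.

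Of the complex that ubiquitinates histone H2A, the core subunit Bmi1 lay between -0.44 and 0.20 with EBF1 and between -0.47 and 0.25 with PAX5. Ring1, a ligase, lay between -0.68 and 0.35 and between -0.42 and 0.73. Rnf2, the other ubiquitin ligase of the complex, was lower with EBF1 than with PAX5 by 0.32 (adjusted p 0.286), at an unadjusted p of 0.0471.

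SWI/SNF included the lowest unadjusted p of all members with EBF1. Arid1a, the large subunit that helps target the complex, read 2546, 2180 and 2861 on the set 1 controls and 1979, 1804 and 2056 on the EBF1 arrays. Every EBF1 array lay below every control. The difference was -0.37 (SE 0.13, interval -0.67 to -0.07, adjusted p 0.333 by limma), and its second probe set, about as bright, read -0.23. With PAX5 it was -0.18, with overlapping arrays.

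The smaller subunit Smarcd1 read 204, 177 and 320 on the set 1 controls and 138, 161 and 230 on the EBF1 arrays, which overlapped. Its difference was -0.36 (interval -0.79 to 0.06, adjusted p 0.506). It was -0.56 without EBF1 array 3 (adjusted p 0.148), -0.22 without EBF1 array 1 (adjusted p 0.809) and -0.13 without control array 3 (adjusted p 0.87). These intervals and p-values rest on control values averaged over 2 sets that disagreed in spread, as described with the control sets. With PAX5 Smarcd1 read 1227, 1152 and 1157 on the controls and 1070, 1087 and 1000 on the PAX5 arrays. There the PAX5 arrays lay below the controls, with a difference of -0.15 (adjusted p 0.908). The other 5 subunits, including the ATPases Smarca2 and Smarca4, differed by -0.21 to 0.22 with EBF1 and by -0.23 to 0.23 with PAX5. Smarca2 was highest on EBF1 array 3, at 360 against 202 and 221 on the other EBF1 arrays, the array with the high stroma sum. The second, dimmer probe set of Smarca2 read 89.4, 64.1 and 85.0 on the EBF1 arrays, against 86.0, 89.3 and 86.0 on the set 1 controls. The part of stroma in the Smarca2 values was not tested.

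Of the 5 NuRD subunits 4 lay below 0 with EBF1 (median -0.22) and 4 with PAX5 (median -0.04), where 46.8% and 51.8% of all genes did. Mta1 had the lowest p, with 1069, 1293 and 1300 on the set 1 controls and 952, 1030 and 1160 on the EBF1 arrays. The arrays overlapped, and the difference was -0.22 (SE 0.13, adjusted p 0.567 by limma). The second, dim probe set of Mta1 read 0.08. With PAX5 the brightest differed by -0.25, with values of 1180, 1340 and 1483 against 1081, 1120 and 1193. The helicase Chd4 showed the widest disagreement between probe sets with EBF1: its brightest read -0.28 and the others 0.17 and 0.44, none past the test.

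The other NuRD subunits, Chd3, Mta2 and Gatad2a, had intervals that reached from -0.80 to 0.36 with EBF1 and from -0.66 to 0.59 with PAX5. Mta2 was high on control array 3 alone, at 1446 against 758 and 720 on the other set 1 controls, and read 784, 711 and 846 with EBF1.

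Deacetylases remove the acetyl groups that loosen chromatin. Hdac9, a class IIa enzyme, had the largest difference of any member with EBF1 and also the least certain one. It read 1837, 923 and 1033 on the set 1 controls and 883, 400 and 913 on the EBF1 arrays. All EBF1 arrays lay below all controls, though EBF1 array 3 nearly reached control array 2. The difference was -0.80 (SE 0.35, interval -1.59 to -0.00056, adjusted p 0.43 by limma), and it was -0.50 without control array 1 and -0.42 without EBF1 array 2. The second probe set of Hdac9 read -0.44. With PAX5 it read 1169, 976 and 994, against 1881, 935 and 1067, and overlapped. The sum of 7 myeloid markers was also lower with EBF1, at 379 to 742 against 884 to 2172 on the set 1 controls. Most of it came from Mpo, at 407, 199 and 537 against 1876, 1034 and 660. Of the 7 markers 4 lay below 0 with EBF1 and 3 above (Csf1r, Cd14 and Elane), and 0 passed the test. The sum was not low with EBF1 alone. On PAX5 arrays 1, 2 and 3 it was 1639, 1033 and 993, against 2657, 1841 and 1442 on the set 2 controls, with overlap. The part of these markers in the Hdac9 values was not tested.

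Hdac2, a class I enzyme of NuRD and other complexes, read 2399, 2624 and 2481 on the set 2 controls and 2104, 2219 and 2161 on the PAX5 arrays, with no overlap. The difference was -0.22 (SE 0.11, adjusted p 0.613), and with EBF1 it was 0.02. Hdac1, Hdac3 and Hdac7 differed by -0.15 to -0.06 with the factors.

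Of the acetyltransferases, Crebbp read 1509, 1128 and 1320 on the set 1 controls and 1138, 995 and 1128 on the EBF1 arrays. The groups overlapped, and the difference was -0.27 (SE 0.15, adjusted p 0.534 by limma). Its other probe sets read -0.00027, -0.17 and 0.27, and the mean over its probe sets was -0.04. Without control array 1 the brightest read -0.17. Its close relative Ep300 differed by -0.16 with EBF1 and 0.13 with PAX5. Kat2a stood higher with EBF1 than with PAX5 by 0.37 (adjusted p 0.275).

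The 95% intervals of the 5 remaining histone methylation enzymes lay between -0.48 and 0.38 with EBF1 and between -0.43 and 0.34 with PAX5. Kdm1a, a histone H3 demethylase, read 2243, 2207 and 2059 on the set 2 controls and 1936, 1947 and 1894 on the PAX5 arrays, without overlap. The difference was -0.17 (SE 0.12, adjusted p 0.753). The H3 methyltransferases Setdb1, Ehmt2, Dot1l and Nsd1 differed by -0.20 to 0.14 with EBF1 and by -0.13 to 0.03 with PAX5.

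Over all 116 probe sets of the members, 10 members had 1 and 36 had several. None of the 116 passed the test over 34945 probe sets with either factor or for the difference. Of all 34945 probe sets 51 passed with EBF1, 239 with PAX5 and 469 for the difference. At an unadjusted p under 0.05 there were 6, 7 and 7 of the 116, in the same order. The share of all probe sets at that level is not given here, so those counts are not set against a background. All probe sets of a gene lay on the same side of 0 in 21 of the 36 with EBF1 and in 20 of the 36 with PAX5. The SWI/SNF scaffold Smarcc1 read -0.23 with PAX5 by its brightest probe set and -0.52, -0.59 and 0.04 by the others. The 6 probe sets of Suz12 all lay above 0 with EBF1, from 0.11 to 0.39.

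Arrays of a factor and its controls did not overlap for 3 members with EBF1 (Cbx2 above; Arid1a and Hdac9 below), a share of 6.52% against 14.4% of all genes. With PAX5 this held for 6 members (Mbd2 above; Dnmt3b, Smarcd1, Hdac2, Kdm1a and Nsd1 below), 13.0% against 18.3%. In both the share of the members was below that of all genes. Of the 137 genes of the wider lists, 17.5% did not overlap with EBF1 and 23.4% with PAX5, above the shares of all genes.

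The 2 control sets disagreed for 4 of the 46 genes, although they looked like the same hybridisations. Tet3 read 1, 2.7 and 1 on the set 1 controls and 1 on every EBF1 array, but 150, 156 and 185 on the set 2 controls, so its EBF1 change could not be read. Smarcd1 averaged 234 in set 1 and 1179 in set 2. Chd3 averaged 474 and 1673, and Cbx2 412 and 1191. On the log2 scale the offsets were 3.35, 2.30, 1.79 and 1.50. The other 42 members lay between -0.03 and 0.15. Over all genes 6.31% had an offset above 1 in size, 1148 genes, of which 743 were higher in set 2 and 405 lower, and 8.70% of the members did. The second probe sets of Cbx2 and Smarcd1 had offsets of 0.16 and 0.17. Each factor was set against controls from its own set, so an offset that is constant on the log2 scale does not enter a difference. For Smarcd1 the offset was not constant. Set 1 control arrays 1, 2 and 3 lay -0.14, -0.33 and 0.47 from their log2 mean. Those of set 2 lay 0.06, -0.03 and -0.03 from theirs. The fit averaged control arrays of equal number, which narrowed the control spread behind the EBF1 SE, interval and p of Smarcd1. Its control intensities had an SD of 76.0 in set 1 and 41.8 in set 2, around the unlike means above. Whether the other offsets are constant on the log2 scale was not tested. The level of these 4 genes depends on the set that is read. The authors' way of summarising probes was not given in the sources used here. Which set lies nearer the true level is not known.

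**Figure D4:**
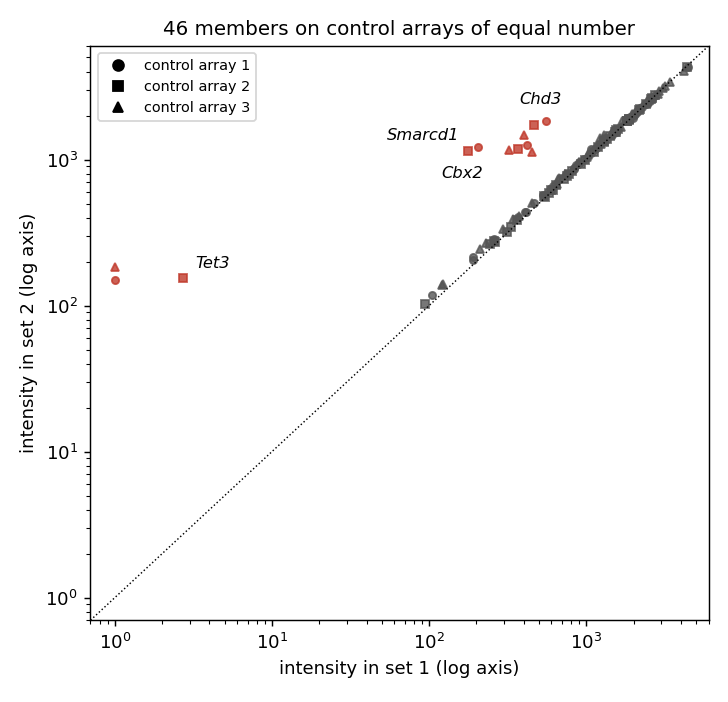
Intensity of the 46 members on control arrays of equal number, set 1 on the x axis and set 2 on the y axis (both log scales), with the dotted line marking equality. Tet3, Smarcd1, Chd3 and Cbx2 lie above the line and the other 42 lie close to it.

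A wider list of 137 chromatin genes, other subunits and enzymes of the same pathways, gave 0 calls with EBF1. With PAX5 2 rose and 0 fell, so that 1.46% rose against 0.797% of all genes. At an unadjusted p under 0.05 there were 12 genes (8.76%) with EBF1 and 12 with PAX5, against 11.6% and 9.45% of all genes, and 26 (19.0%) for the difference, against 17.0%. Bcl7a, a SWI/SNF subunit, read 860, 935 and 983 on the set 2 controls and 2778, 2222 and 2246 on the PAX5 arrays. All PAX5 arrays, counted as 2 samples, lay above all controls. It rose by 1.41 (SE 0.22, adjusted p 0.0265 by limma). Its level, too, depends on the set, at 272 on average on the set 1 controls and 926 on those of set 2. Of its 5 probe sets the others read 0.12, 1.30, -0.13 and -0.39, and its average over probe sets was 0.46, which missed the test. Leaving out any control array also ended the call, as did a pseudocount of 1 (adjusted p 0.0852 by limma). Without PAX5 array 1, which leaves 1 PAX5 sample, the difference was 1.26.

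Kdm1b, a histone demethylase related to Kdm1a, read 474, 508 and 409 on the controls and 987, 802 and 751 on the PAX5 arrays. The groups did not overlap. It rose by 0.90 (SE 0.16, adjusted p 0.048 by limma) through its only probe set, which missed the threshold when p was adjusted over all probe sets (0.059). Its PAX5 change exceeded its EBF1 change by 0.81 (SE 0.16, adjusted p 0.0454), the only one of the 137 to pass for the difference. With the replicate block Pcgf5 and Hdac5 passed for the difference as well. The call of Kdm1b with PAX5 was lost on leaving out any control or EBF1 array, or PAX5 array 2. Its lowest value, 0.73, came without PAX5 array 1, which leaves 1 PAX5 sample. Its call for the difference remained without control array 3 or PAX5 array 3. That call was lost without control array 1 or 2, any EBF1 array or PAX5 array 2. With PAX5, Kdm1b passed in 10 of 21 alternative settings and Bcl7a in 15 of 21.

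With EBF1 the lowest p of the wider list belonged to Mta3, a NuRD subunit. It read 1072, 1005 and 890 on the set 1 controls and 536, 732 and 679 on the EBF1 arrays, a difference of -0.60 (adjusted p 0.154). On the PAX5 arrays it read 678, 701 and 690 against 1085, 1003 and 921, a difference of -0.53 (adjusted p 0.278). In each comparison the transduced arrays lay below all controls. The second probe set of Mta3 read -0.31 with EBF1 and -0.09 with PAX5, and the third -0.16 and -0.0033. The methyltransferase Setd1b followed at -0.47 (adjusted p 0.215), and its second probe set read -0.23. Pcgf5, a Polycomb ring finger protein, read 509, 488 and 380 on the set 1 controls and 989, 1036 and 545 on the EBF1 arrays, a difference of 0.83 (adjusted p 0.218), and its other probe sets read 0.44 and 0.37. EBF1 array 3 was the lowest of the 3, and without it Pcgf5 passed at 1.13 (adjusted p 0.00891). For the difference between the factors, Ing5, a reader in acetyltransferase complexes, was next after Kdm1b at 0.56 (adjusted p 0.0905).

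**Figure D5:**
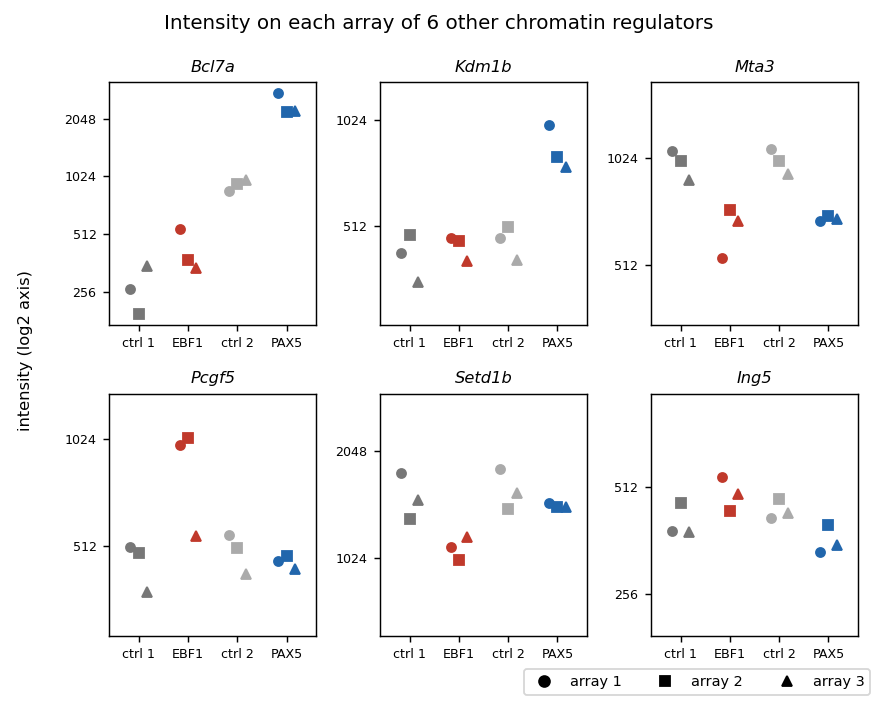
Intensity on each array (y axis, log2 scale) of 6 genes of the wider lists by group, with 1 symbol for each array number. Bcl7a and Kdm1b lie above the set 2 controls on all 3 PAX5 arrays, and Mta3 lies below its controls on all transduced arrays.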

How the data were processed

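The authors deposited linear intensities per probe set for 12 Affymetrix arrays; their probe summary and normalization were not given in the sources used here. Per the labels, RNA came from sorted GFP-positive cells. Intensities were used as log2(intensity + 16) with no further scaling. Gene names are those of the platform annotation (1 symbol for 34945 of 45037 probe sets, several for 932, none for 9160), and each gene took its brightest single-symbol probe set. For each gene the offset of set 2 controls from set 1 controls was subtracted, equal-number controls and PAX5 arrays 2 and 3 were averaged, and limma 3.58.1 in R 4.3.3 fitted 3 group means with 5 residual degrees of freedom. The script was tested on simulated data.

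Deviations of control and EBF1 arrays from their group means correlated at 0.345, 0.608 and 0.391 for equal numbers. Arrays of equal number may therefore be paired, but the main fit did not use this pairing. Differences, SEs, intervals and p-values come from that unpaired fit unless another setting is named. With the pairing as a block, the smallest adjusted p of a member with EBF1 was 0.158 by limma, against 0.333. Values in every array are given for the 8 members with the lowest p with each factor; of the wider lists, for those past the threshold and otherwise the 3 lowest. Members and lists were chosen with earlier results of these data known.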

Additional observations from a re-analysis of the deposited data

How the results depend on the processing

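No member passed the adjusted threshold in any of the 20 alternatives for EBF1, 21 for PAX5 and 19 for the difference, which changed the pseudocount (1 or 64), the scaling, the probe sets per gene, the filter (mean log2 above 7), the variance model, the counting of arrays, the pairing or the arrays kept. The smallest adjusted p of a member by limma was 0.148 with EBF1 (Smarcd1, without EBF1 array 3). It was 0.0951 with PAX5 (Dnmt3b, replicate block in set 2 alone) and 0.116 for the difference (Uhrf1, without control array 3). The Smarcd1 value rests on controls averaged over sets that disagreed for this gene. The Dnmt3b value comes from a fit that counted PAX5 arrays 2 and 3 as separate samples. Members with an interval within 2-fold numbered 42 to 44, 41 to 46 and 40 to 44. The count over all genes moved more, from 40 to between 10 and 406, from 159 to between 28 and 357, and from 353 to between 55 and 879.

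With the replicate block among control and EBF1 samples, the count over all genes with EBF1 went from 40 to 69, 0 members passed, and the smallest adjusted p was 0.158 (Hdac9). The block changed no call of a member; for the difference it raised the count over all genes from 353 to 608, and Pcgf5 and Hdac5 of the wider lists joined Kdm1b. Deviations of set 2 control and PAX5 arrays correlated at 0.411, 0.194 and 0.333 for equal numbers. As PAX5 arrays 2 and 3 were counted as 1 sample, these numbers were not used as pairs among the samples. A further setting, the block in set 2 alone, did use them and counted PAX5 arrays 2 and 3 as separate samples. There 0 members passed and Kdm1b was lost (adjusted p 0.0561 by limma).

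Of the wider lists, the calls gained were Mta3 with EBF1 when all 12 arrays were counted separately (adjusted p 0.0494), Pcgf5 with EBF1 and for the difference without EBF1 array 3, Pcgf5 and Ing5 for the difference when PAX5 arrays 2 and 3 were counted separately (0.0413 for Ing5), and Pcgf5 and Hdac5 for the difference under the block. Calls were also lost. With a pseudocount of 1, Bcl7a (adjusted p 0.0852 by limma) and Kdm1b (0.123) no longer passed with PAX5, nor did Kdm1b for the difference (0.089). Counting all 12 arrays separately also lost Kdm1b for the difference (0.152). Among the named genes, differences that missed the threshold changed sign in 24 cases. With EBF1, median scaling gave -0.0039 for Mbd2, -0.027 for Hdac2 and -0.040 for Jarid2, and the mean of all probe sets gave -0.011 for Hdac2 and -0.066 for Jarid2. For the difference, median scaling gave -0.022 for Mta1. On leaving out 1 array at a time, the EBF1 values ran from -0.031 to 0.13 for Mbd2, -0.0057 to 0.064 for Hdac2, -0.11 to 0.064 for Mbd3 and -0.034 to 0.071 for Jarid2. The PAX5 values ran from -0.26 to 0.11 for Uhrf1, -0.40 to 0.10 for Hdac9, -0.060 to 0.14 for Cbx2 and -0.095 to 0.15 for Crebbp. The difference ran from -0.40 to 0.041 for Smarcd1 and -0.045 to 0.095 for Mta1. The cause was not tested.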
